A study of Mus musculus with 12 samples.

Results

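Retinoic acid signalling was followed through 9 genes: the synthesis enzymes Aldh1a1, Aldh1a2 and Aldh1a3, the retinaldehyde reductase Dhrs3, the binding proteins Crabp1 and Crabp2, the receptor Rarb and the degrading enzymes Cyp26a1 and Cyp26b1. Members were the probe sets (groups of short probes that read the 3' end of a transcript) whose single gene symbol in the platform table is one of these names. There were 10 such probe sets for 8 of the 9 genes, among 12393 genes tested from 22690 probe sets. Cyp26b1 was not analysed here.

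The series compared 6 beta-catenin activated with 6 wildtype samples of fetal mouse kidney grown in culture, beta-catenin being the transcriptional effector of canonical Wnt signalling. The activated samples were labelled as having the beta-catenin activated genotype and as kidneys with tumors, and the wildtype samples as normal kidneys, all of strain C57BL/6. Pregnant mice of both groups had received 2 mg of tamoxifen per 40 g of body weight, given intraperitoneally at 10.5 dpc (days post coitum), and the kidneys were taken at 10.5 dpc and cultured over 3 to 4 days on membranes in a medium with transferrin, insulin and selenium. The allele and the Cre driver behind the activation are not given in the sources used here, nor whether each sample was a separate animal, so p-values measure the spread between these samples, which may be technical. The numbers in the sample titles form 2 runs, a higher one (activated 4 to 6 and wildtype 4 to 6) and a lower one (activated 1 to 3 and wildtype 1 to 3). What distinguishes the runs is not in the labels.

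Retinoic acid is made from vitamin A: retinol is oxidised to retinaldehyde, which Dhrs3 can reduce back to retinol, and the Aldh1a enzymes oxidise retinaldehyde irreversibly to retinoic acid. The acid binds nuclear receptors of the Rar and Rxr families on paired half-sites in DNA, Crabp1 and Crabp2 hold it in the cytoplasm, and Cyp26 enzymes break it down. Rarb, Cyp26a1, Dhrs3 and Crabp2 are textbook genes that retinoic acid induces, and in the developing kidney the stroma, where Aldh1a2 is made, supplies retinoic acid that maintains Ret in the branching ureteric bud.

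Among the induced genes, receptor half-sites can be read in the promoters of Rarb and Cyp26a1. RefSeq windows of 300 bases (250 before and 50 after a transcript start, build GRCm38.p6) matched 7 of the 9 genes, with 10 windows. Aldh1a3 and Crabp2 were not matched. Both strands were searched for a DR5, a direct repeat of any of the half-sites (AGGTCA, the form AGTTCA, the form GGGTCA and the form GGTTCA) with 5 bases between them. A DR5 was found in 32 of all 32851 windows (0.0974%), and among the windows of these genes in 1 of Rarb and 1 of Cyp26a1. The 250 bases before the start are shown for these windows, because they carry the repeat, and for Aldh1a2, the member with the clearest difference in these data, whose window has no match. Capitals mark the DR5. In Rarb (minus strand of the chromosome, chr14:16575477-16575726) it starts 53 bases before the transcript start, as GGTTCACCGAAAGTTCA. In Cyp26a1 (plus strand, chr19:37697558-37697807) its first base as printed is 32 bases before the start, and on the opposite strand it reads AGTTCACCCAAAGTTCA. The Aldh1a2 stretch is chr9:71215539-71215788, plus strand.
Rarb: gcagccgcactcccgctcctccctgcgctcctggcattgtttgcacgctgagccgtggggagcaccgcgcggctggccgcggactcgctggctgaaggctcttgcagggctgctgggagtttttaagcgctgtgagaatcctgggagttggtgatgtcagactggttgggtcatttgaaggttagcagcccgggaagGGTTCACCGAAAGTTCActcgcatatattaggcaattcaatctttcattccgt
Cyp26a1: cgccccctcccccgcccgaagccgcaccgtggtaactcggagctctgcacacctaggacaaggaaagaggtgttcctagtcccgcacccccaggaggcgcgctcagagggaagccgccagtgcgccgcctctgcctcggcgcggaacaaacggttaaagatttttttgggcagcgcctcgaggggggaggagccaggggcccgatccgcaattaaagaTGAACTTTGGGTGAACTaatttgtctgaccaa
Aldh1a2: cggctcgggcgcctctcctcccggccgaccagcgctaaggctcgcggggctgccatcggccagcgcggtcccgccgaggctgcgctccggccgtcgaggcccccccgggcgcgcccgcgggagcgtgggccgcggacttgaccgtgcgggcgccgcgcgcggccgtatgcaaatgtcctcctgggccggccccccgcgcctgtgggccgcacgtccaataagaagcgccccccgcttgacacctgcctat
The single half-site AGTTCA was found in 14% and AGGTCA in 16.3% of all windows. Among these genes AGTTCA was found only inside the 2 repeats, AGGTCA in no window, and direct repeats spaced by 1 or 2 bases (0.222% and 0.268% of all windows) in no window. A match is a description of the letters and not evidence of a bound site, and the lack of one says only that these letters are not in the window.

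Values are log2(intensity + 16) after quantile normalisation, compared with limma, with p-values adjusted (Benjamini-Hochberg) over all 12393 genes and a threshold of 0.05. Detection calls were not used here, and a gene was called above background on an array where it exceeded the highest of 27 bacterial control probe sets there, which lay between 4.89 and 5.45. All 12 stromal markers measured, 7 of 9 nephron progenitor markers and 5 of 9 ureteric bud markers were above background on every array, while Ret, which defines the tips of the bud, was above it on 2 of 12. The arrays differed in RNA quality: the mean log2 ratio of 5' to 3' control signal (Gapdh and beta-actin) was highest on activated 2, at -0.28. It was -1.14 on activated 6 and -1.27 on wildtype 2, against -2.44 to -1.90 on the others. Activated 4 carried both Xist (10.90) and Y-linked signal (7.54). Of the other arrays, 3 had Xist alone (11.52 to 11.90) and 8 Y-linked signal alone (7.38 to 8.65).

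Of the 8 genes measured, 1 fell in activated kidneys, in 1 of the 2 runs: Aldh1a2, the main retinoic acid synthesis enzyme of the embryo, was 2.12-fold lower in activated than in wildtype kidneys of the lower run. In that run 0.597% of all genes passed. Aldh1a1, Rarb, Crabp2 and Dhrs3 were also below every wildtype array of that run (7.09% of all genes were), without passing the test, and Aldh1a3 was above (5.41%). In the higher run 0 of 8 passed with limma (0.00807% of all genes did), with 1 (Crabp1) at an unadjusted p under 0.05 (6.36% of all genes), and in the lower run 1 passed and 5 had such a p (7.07%). Over all 12 arrays 0 of 8 passed with limma (0.0242% of all genes did), with 2, Aldh1a2 and Aldh1a1, at an unadjusted p under 0.05 (6.15% of all genes), and 0 of 8 had groups that did not overlap (0.5% of all genes). Between the runs, in wildtype kidneys alone, 4 of the 8 differed, as did 5.09% of all genes: Aldh1a3 was higher in the higher run, and Aldh1a2, Crabp1 and Crabp2 were lower.

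Aldh1a2 (chr9:71215789-71296243 in RefSeq's GRCm38.p6, as for the genes that follow) converts retinaldehyde to retinoic acid. In the higher run it read 9.80, 10.09 and 9.93 in activated kidneys, against 10.04, 10.16 and 9.92 in wildtype kidneys. These groups overlapped, with a difference of -0.10 (SE 0.11, 95% interval -0.35 to 0.15, limma adjusted p = 0.928). In the lower run it read 9.65, 9.67 and 9.39 in activated kidneys, against 10.76, 10.58 and 10.62 in wildtype kidneys. There all 3 activated arrays lay below all 3 wildtype arrays, and Aldh1a2 fell by 1.09 on the log2 scale (SE 0.13, limma adjusted p = 0.00454). Of all genes tested, 0.266% fell in the lower run. With any 1 array left out the lower-run difference was -1.13 to -0.998 and past the threshold, at -1.13 (adjusted p = 0.00822) without activated 2, but the call was lost without the variance trend (adjusted p = 0.0755).

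The 2 runs differed in this effect by a test of the difference itself: the activation difference of Aldh1a2 was higher by 0.99 (SE 0.17, limma adjusted p = 0.0222) in the higher than in the lower run, a call made for 0.331% of genes. Left-out arrays moved the size of this difference between 0.90 and 1.06, and the call was lost without wildtype 1, 3, 4 or 6 or activated 3 or 5 (adjusted p = 0.0507 to 0.0787). It held without activated 2 (adjusted p = 0.0172) and without activated 4 (adjusted p = 0.0308), and was lost with median centring of the arrays (adjusted p = 0.0875) and in the fit without a variance trend (adjusted p = 0.117). The wildtype arrays carried part of it. In wildtype kidneys Aldh1a2 averaged 10.04 ± 0.12 in the higher run and 10.66 ± 0.09 in the lower run (SD, n = 3 each), a difference of -0.61 (SE 0.10, limma adjusted p = 0.00961, against 0.0525 without wildtype 4 and 0.0761 without the variance trend, where the call was lost). In activated kidneys it averaged 9.94 ± 0.15 in the higher run and 9.57 ± 0.15 in the lower run, a difference of 0.37 (SE 0.14, limma adjusted p = 0.247), with every higher-run array above every lower-run array. Over all 12 arrays the activation difference was -0.59 (SE 0.16, limma adjusted p = 0.345), and the adjusted p was 0.154 with the run as a term, where 0.105% of all genes passed. Thus the level of Aldh1a2 was highest in the lower-run wildtype kidneys and lowest in the lower-run activated kidneys, and the higher-run groups, between them, overlapped.

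**Figure D1:**
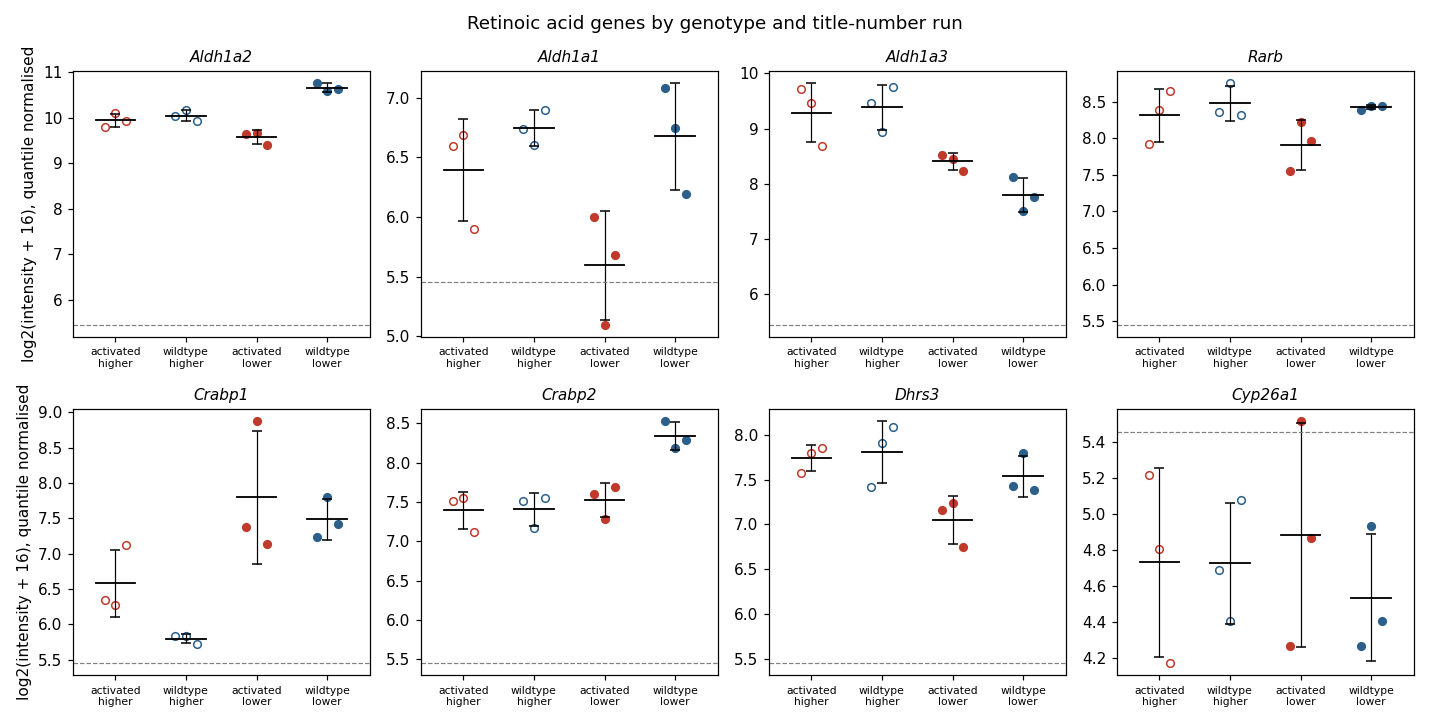
Log2 values of the 8 measured genes on each array (points; open for the higher run, filled for the lower run), with the group mean (line) and SD (bars, n = 3), by genotype and run; the dashed line is the highest bacterial control signal, 5.45, and each panel has its own axis. Aldh1a2 and Crabp2 of the lower run have every activated array below every wildtype array, while in the higher run their groups overlap.

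Most members separated by genotype in the lower run. Aldh1a2, Aldh1a1, Rarb, Crabp2 and Dhrs3 each had all 3 activated arrays below all 3 wildtype arrays, which was so for 7.09% of all genes. Aldh1a3 had all 3 above, as did 5.41% of all genes. The median difference of the 8 members was -0.08 in the higher run, against -0.00115 over all genes, and -0.50 in the lower run, against -0.03 over all genes. The count of 5 was 4 with the values as deposited, where the groups of Dhrs3 overlapped. Crabp1 alone did not overlap in the higher run, with its activated arrays above, as for 5.6% of genes; with the values as deposited Aldh1a1 did not either, with its activated arrays below. For 7 of the 8 members the difference was larger in size in the lower than in the higher run, as it was for 56.4% of genes.

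Aldh1a1 (chr19:20492583-20643463), a second enzyme that oxidises retinaldehyde, was dim. It read 6.59, 6.69 and 5.90 in activated kidneys of the higher run, against 6.73, 6.61 and 6.90 in wildtype kidneys. It read 6.00, 5.10 and 5.68 in activated kidneys of the lower run, against 7.08, 6.75 and 6.20 in wildtype kidneys. The higher-run groups overlapped and the lower-run groups did not, and the value of activated 2, at 5.10, was not above that array's background. The difference was -0.35 (SE 0.25, adjusted p = 0.881) in the higher run and -1.08 (SE 0.34, adjusted p = 0.381) in the lower run by limma, so the mean difference in the lower run was near that of Aldh1a2 with a wider spread. Over all 12 arrays it was -0.72 (SE 0.25, 95% interval -1.26 to -0.18, limma adjusted p = 0.647).

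Aldh1a3 (chr7:66390892-66427477), the third enzyme of this family, had its activated arrays above its wildtype arrays in the lower run. It read 9.72, 9.47 and 8.69 in activated kidneys and 9.47, 8.94 and 9.75 in wildtype kidneys of the higher run. It read 8.53, 8.46 and 8.24 in activated kidneys and 8.12, 7.51 and 7.77 in wildtype kidneys of the lower run. The difference between genotypes was -0.09 (SE 0.28, limma adjusted p = 0.976) in the higher run and 0.61 (SE 0.21, limma adjusted p = 0.433) in the lower run, neither past the test. The larger difference was between runs. Wildtype kidneys of the higher run were 3.01-fold above those of the lower run (log2 difference 1.59, SE 0.23, limma adjusted p = 0.00525), and all 3 lay above. In activated kidneys the run difference was 0.88 (SE 0.25, limma adjusted p = 0.121) without overlap; without activated 6 it was 1.19 (adjusted p = 0.0209).

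Aldh1a3 has 3 probe sets. The values above are from the brightest, and the other 2 had means of 6.23 and 5.69. They gave 1.56 and 1.05 for the run difference in wildtype kidneys (limma adjusted p = 0.0877 and 0.207 over all probe sets), the same sign as the brightest. In activated kidneys they gave -0.07 and 0.42, so the probe sets did not share a sign there. The activation difference of the lower run was 1.29 and 0.56 on these 2 probe sets, positive on all 3 and past the test on none. Some of their lower-run wildtype values were not above background. These were 4.42 on wildtype 2 and 5.04 on wildtype 3 for the first, and 4.25 on wildtype 2 for the second. The sizes of their differences from that group are therefore limited by signal.

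Dhrs3 (chr4:144892534-144928209) reduces retinaldehyde to retinol and so limits how much can be oxidised. It read 7.58, 7.79 and 7.85 in activated kidneys and 7.42, 7.91 and 8.09 in wildtype kidneys of the higher run. It read 7.16, 7.23 and 6.74 in activated kidneys and 7.43, 7.80 and 7.38 in wildtype kidneys of the lower run. Activated kidneys thus lay below wildtype ones in the lower run only, by a gap smaller than the spread within either group. The difference was -0.06 (SE 0.19, limma adjusted p = 0.976) in the higher run and -0.49 (SE 0.24, limma adjusted p = 0.745) in the lower run. The activated arrays of the higher run were all above those of the lower run, at 7.74 ± 0.14 and 7.05 ± 0.27 (SD, n = 3 each), with a difference of 0.70 (SE 0.21, limma adjusted p = 0.157).

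**Figure D2:**
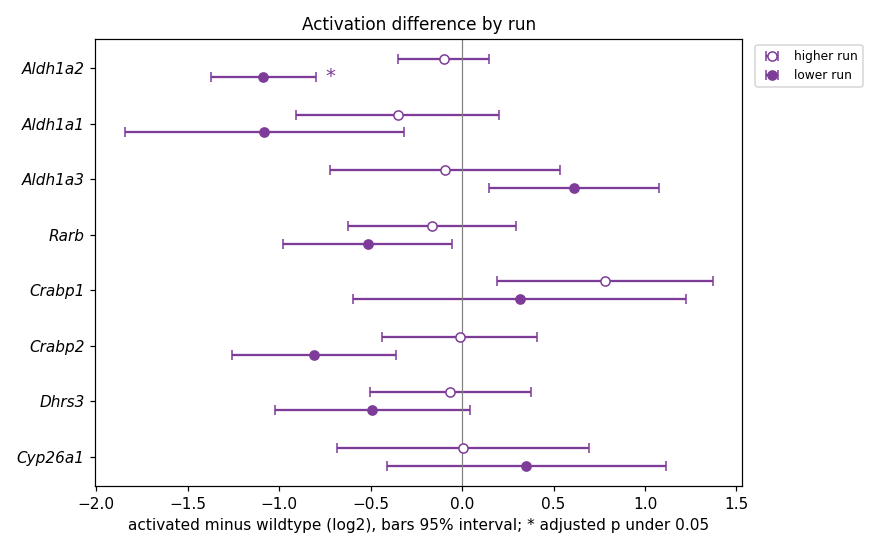
Activation difference (activated minus wildtype, log2) of each measured gene in the higher run (open points) and the lower run (filled points), with 95% intervals from limma; a star marks an adjusted p under 0.05. Aldh1a2 in the lower run, at -1.09, is the single starred value, and 7 of 8 genes have the larger difference in the lower run.

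Crabp2 (chr3:87948693-87953372) carries retinoic acid to the nuclear receptors. It read 7.52, 7.55 and 7.12 in activated kidneys and 7.52, 7.17 and 7.55 in wildtype kidneys of the higher run. It read 7.61, 7.28 and 7.69 in activated kidneys and 8.53, 8.19 and 8.29 in wildtype kidneys of the lower run. The lower-run wildtype arrays stood above the other 9 arrays, which shared 1 range. The activation difference was -0.01 (SE 0.19, limma adjusted p = 0.996) in the higher run, with a 95% interval of -0.44 to 0.41. It was -0.81 (SE 0.20, limma adjusted p = 0.170) in the lower run, with a 95% interval of -1.26 to -0.36. The change of this difference between runs, 0.80 (SE 0.27, limma adjusted p = 0.453), did not pass.

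In wildtype kidneys alone Crabp2 was lower in the higher run, at 7.41 ± 0.21, against 8.34 ± 0.18 in the lower run (SD, n = 3 each), a difference of -0.93 (SE 0.17, limma adjusted p = 0.0158). The call was lost without wildtype 1, 3, 4 or 5 (adjusted p = 0.0523 to 0.0619). In activated kidneys the run difference was -0.13 (SE 0.22, limma adjusted p = 0.867).

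Crabp1 (chr9:54764748-54773110) binds retinoic acid in the cytoplasm and is known for bringing it to its degradation. It read 6.34, 6.27 and 7.13 in activated kidneys and 5.83, 5.84 and 5.72 in wildtype kidneys of the higher run. It read 7.38, 8.88 and 7.14 in activated kidneys and 7.23, 7.80 and 7.42 in wildtype kidneys of the lower run. Every activated array of the higher run was above every wildtype array of that run, and the lower-run groups overlapped. The activation difference was 0.78 (SE 0.26, limma adjusted p = 0.706) in the higher run, where activated 6 had the highest value. Without activated 6 it was 0.51 (limma adjusted p = 0.563). In the lower run it was 0.31 (SE 0.41, limma adjusted p = 0.962), with the highest value on activated 2. Without activated 2 it was -0.22 (limma adjusted p = 0.811). In each genotype and run, Crabp1 read highest on the array with that group's highest 5' to 3' ratio. In wildtype kidneys of the higher run these values were nearly tied, at 5.836 on wildtype 5 and 5.833 on wildtype 4.

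The runs differed in Crabp1 by a larger amount. Wildtype kidneys averaged 5.80 ± 0.07 in the higher run and 7.49 ± 0.29 in the lower run (SD, n = 3 each), so the gene was 3.23-fold lower in the higher run (log2 difference -1.69, SE 0.22, limma adjusted p = 0.00318). Activated kidneys averaged 6.58 ± 0.47 in the higher run and 7.80 ± 0.94 in the lower run, a difference of -1.22 (SE 0.44, limma adjusted p = 0.243). The activated groups had no overlap after quantile normalisation but overlapped with the values as deposited and with arrays centred on their medians. Without activated 2 the difference was -0.68 (adjusted p = 0.292).

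Rarb (chr14:16430839-17082331) is the receptor whose promoter holds the repeat printed above. It read 7.92, 8.38 and 8.64 in activated kidneys and 8.35, 8.76 and 8.32 in wildtype kidneys of the higher run. It read 7.54, 8.22 and 7.97 in activated kidneys and 8.39, 8.44 and 8.45 in wildtype kidneys of the lower run. The lower-run wildtype arrays lay within 0.06 of each other, above all 3 activated arrays. The difference was -0.16 (SE 0.20, limma adjusted p = 0.934) in the higher run and -0.52 (SE 0.21, limma adjusted p = 0.584) in the lower run. Over all 12 arrays it was -0.34 (SE 0.16, 95% interval -0.69 to 0.01, limma adjusted p = 0.826). With the run as a term the interval was -0.66 to -0.02 (limma adjusted p = 0.542). Rarb differed little between runs in wildtype kidneys, by 0.05 (SE 0.15, limma adjusted p = 0.899), with a 95% interval of -0.28 to 0.38.

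Cyp26a1 (chr19:37697738-37701536) degrades retinoic acid, and its promoter holds the other repeat. Its probe set was above background on 2 of 12 arrays, activated 4 at 5.21 and activated 2 at 5.51, and on none of the wildtype arrays. Values ran from 4.17 to 5.51 in activated kidneys, with a median of 4.83, and from 4.26 to 5.08 in wildtype kidneys, with a median of 4.55. The groups overlapped in both runs, and the difference over all 12 arrays was 0.18 (SE 0.23, limma adjusted p = 0.959). These values bound the gene from above and rank no array against another.

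Between the runs, 4 of 8 members passed in wildtype kidneys (Aldh1a3 higher in the higher run, Aldh1a2, Crabp1 and Crabp2 lower), against 5.09% of all genes, of which 3.31% were higher and 1.78% lower in the higher run. The same 4 did not overlap, as did 25.3% of all genes. In activated kidneys 0 of 8 passed with limma, against 2.78% of all genes, with 5 of 8 at an unadjusted p under 0.05, against 14.5% of all genes. Aldh1a2, Aldh1a3 and Dhrs3 were above and Crabp1 below without overlap there, against 20.1% of all genes. Markers of several cell types moved with the runs. Of 58 markers in 10 lists, 8 were higher and 2 lower in the higher run in activated kidneys, and 7 were higher and 4 lower in wildtype kidneys, with limma. The erythroid genes Hba-x and Hbb-y were lower in the higher run, at -2.15 and -2.27 in activated and at -2.07 and -1.92 in wildtype kidneys, while Alas2, which did not pass, had 0.064 in activated and -0.53 in wildtype kidneys. The macrophage genes Csf1r and Cd68 were higher there, each by 1.27 in activated and by 0.88 and 0.94 in wildtype kidneys, all 4 past the test in both genotypes with limma. In activated kidneys the stromal genes Dcn and Col3a1, the nephron progenitor genes Six2 and Cited1, the ureteric bud keratin Krt8 and the neural gene Elavl4 were also higher, by 0.47 (Col3a1) to 2.47 (Cited1, above background on 2 of 3 lower-run arrays). In wildtype kidneys Dcn (0.70), Krt8 (1.16) and the podocyte gene Podxl (1.29) were higher and the stromal genes Foxd1 (-0.65) and Lum (-1.27) lower, and Upk3a and Msln, which mark urothelium and mesothelium, were higher too. Of the lower-run wildtype arrays Upk3a was above background on 1 and Msln on 0. The Foxd1 call was lost without the variance trend (adjusted p = 0.0587). The mean level of the 3 erythroid markers ran from 7.39 to 7.72 in activated and from 7.71 to 7.80 in wildtype kidneys of the higher run. It ran from 8.88 to 9.39 in activated and from 8.76 to 9.70 in wildtype kidneys of the lower run. The part of these cells in the run differences of the members was not tested.

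**Figure D3:**
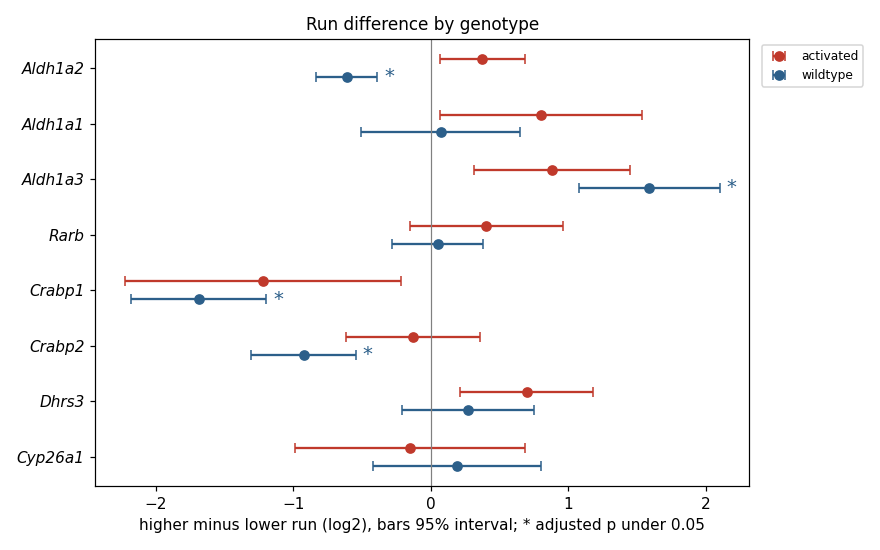
Run difference (higher minus lower run, log2) of each measured gene in activated (red, upper) and wildtype (blue, lower) kidneys, with 95% intervals from limma; a star marks an adjusted p under 0.05. The starred values are all in wildtype kidneys: Aldh1a3 at 1.59, Aldh1a2 at -0.61, Crabp1 at -1.69 and Crabp2 at -0.93.

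Foxd1, which defines stromal progenitors, had the pattern most like that of Aldh1a2. By the root mean square difference of mean-centred log2 values over 12 arrays it was closest (0.15), before Sel1l3 (0.16) and Meis2 (0.18), a homeobox gene of the stroma, against a median of 0.50 over all genes. These arrays share genotype and run, and the genes were picked for their likeness, so their values are a description. Foxd1 averaged 9.56 in activated and 9.78 in wildtype kidneys of the higher run, and 9.50 in activated and 10.44 in wildtype kidneys of the lower run. Sel1l3 averaged 8.46 in activated and 8.67 in wildtype kidneys of the higher run, and 8.12 in activated and 9.14 in wildtype kidneys of the lower run. Meis2 averaged 10.05 in activated and 10.22 in wildtype kidneys of the higher run, and 9.81 in activated and 10.64 in wildtype kidneys of the lower run.

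Of 12 stromal markers 0 passed in the higher run, with 8 above 0 and a median of 0.10. In the lower run 3 (Foxd1, Meis2 and Ntn1) fell and 0 rose, with 3 above 0 and a median of -0.43. Of all genes 0.266% fell there. The Foxd1 fall (-0.93, limma adjusted p = 0.00734) held in 3 of 6 fits with 1 array left out (adjusted p = 0.0107 to 0.0636), being lost without wildtype 1, 2 or 3, and was lost without the variance trend (adjusted p = 0.0926). The mean level of the list ran from 9.91 to 9.997 in activated and from 9.71 to 9.82 in wildtype kidneys of the higher run, where Aldh1a2 differed by -0.10. It ran from 9.58 to 9.70 in activated and from 9.997 to 10.13 in wildtype kidneys of the lower run. Six2, which marks nephron progenitors, fell by 2.01 (limma adjusted p = 0.00155) in the lower run, where 3 of 9 markers of that list fell, with a median of -1.47. Its difference in the higher run was -0.29 (limma adjusted p = 0.881). In bulk tissue fewer cells of a type and less RNA per cell cannot be told apart, and the part of the stromal and progenitor cells in the members' differences was not tested.

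**Figure D4:**
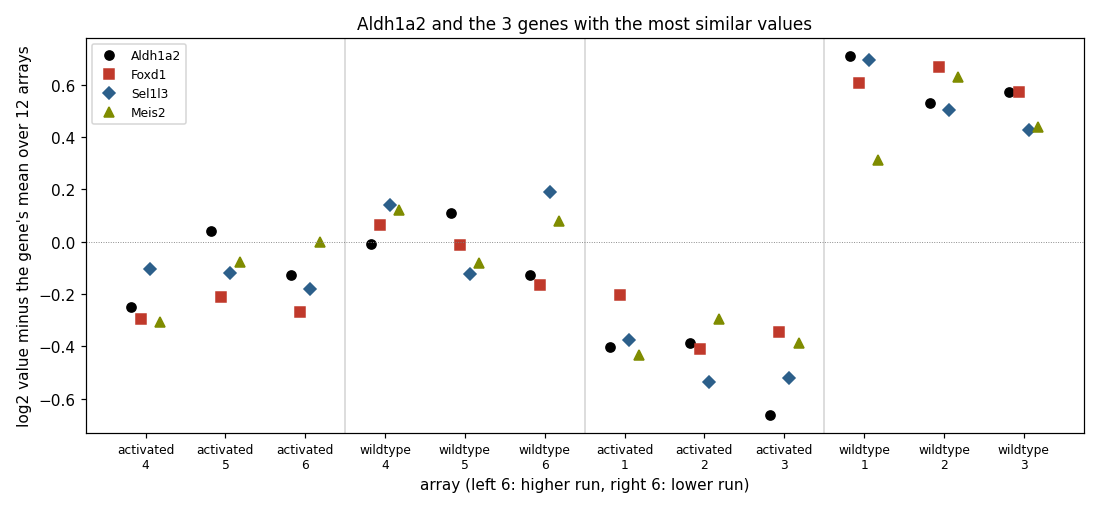
Log2 value minus the gene's own mean over 12 arrays, on each array, for Aldh1a2 and the 3 genes closest to it (Foxd1, Sel1l3, Meis2); grey lines separate the groups of 3 arrays. In the lower run all 4 genes lie above their mean on the 3 wildtype arrays and below it on the 3 activated arrays.

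The genes closest to the other members differed from these. For Aldh1a3 they were Ifitm3 (0.28), an interferon-induced membrane protein, Ptgds (0.30), a prostaglandin D synthase that also binds retinoids, and Cd9 (0.31), a tetraspanin, against a median of 0.79 over all genes. In wildtype kidneys Ifitm3 averaged 10.94 in the higher run and 9.27 in the lower run, and Cd9 averaged 9.66 in the higher run and 8.40 in the lower run. Ptgds was above background on 10 of 12 arrays. For Crabp2 they were Pold3 (0.17), a DNA polymerase subunit, the transcription factor Myb (0.18) and Amot (0.18), an angiomotin, against a median of 0.51. In wildtype kidneys Pold3 averaged 7.55 in the higher run and 8.35 in the lower run. For Rarb they were Plpbp, Rbm47 and Tbc1d20 (0.14 to 0.16, median 0.45), for Dhrs3 Meltf, Acsm2 and Repin1 (0.17 to 0.19, median 0.48) and for Crabp1 Cops6, Mdk and Ddah2 (0.45 to 0.46, median 0.96). Aldh1a1 and Cyp26a1 were given no closest genes, because they were not above background on every array. The genes compared with the members were not held to that limit: Acsm2 was above background on 7, Meltf on 9 and Rbm47 on 11 of 12 arrays.

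The rest of the pathway was read from lists of genes by role. Of 9 measured genes of retinoid supply and transport, which hold both Crabp genes, 0 passed in the activation comparison of either run, and of 21 enzymes that make or reduce retinaldehyde and retinoic acid 1 passed, Aldh1a2 in the lower run. Of all genes 0.597% passed in the lower run. The enzymes had a median of -0.09 in the higher run and -0.14 in the lower run. Rdh10, which makes most retinaldehyde in the embryo, differed by 0.03 over all 12 arrays (SE 0.12, limma adjusted p = 0.996). Ttr, the plasma carrier of thyroxine and of the retinol binding protein, averaged 5.93 in activated kidneys of the lower run, where 0 of 3 wildtype arrays were above background, and did not pass (limma adjusted p = 0.213). In wildtype kidneys Ttr was at least 2.65-fold higher in the higher run (limma adjusted p = 0.00344), from a mean of 6.72 in the higher run and, in the lower run, the bacterial control limit of its arrays, 5.32 on average, in place of the measured mean of 4.46.

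Of 14 measured receptors and cofactors, 0 passed in either run, with medians of -0.14 in the higher run and -0.07 in the lower run. The smallest p was that of Nr2f1, an orphan nuclear receptor (COUP-TFI) that can bind the same repeats, at -0.56 in the lower run (SE 0.14, limma adjusted p = 0.188). The next were Rere, a nuclear cofactor of the receptors, at -0.38 in the higher run (SE 0.15, limma adjusted p = 0.774), and Rarg, a second receptor, at 0.32 over all 12 arrays (SE 0.13, limma adjusted p = 0.752). Between runs in wildtype kidneys Nr2f1 was lower in the higher run, by -0.67 (SE 0.09, limma adjusted p = 0.00497), and Ncoa1, a receptor coactivator, was higher, by 0.64 (SE 0.14, limma adjusted p = 0.0315). Without each wildtype array in turn the Ncoa1 difference was no longer past the test (adjusted p = 0.0646 to 0.104), and without the variance trend neither call was made (adjusted p = 0.0542 for Nr2f1 and 0.0783 for Ncoa1).

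Of 20 measured response genes, 0 passed in the higher run and 2 fell in the lower run, with medians of -0.08 and -0.17. Of all genes 0.266% fell in the lower run. The medians over all genes were -0.00115 in the higher and -0.03 in the lower run. The 2 response genes were Meis2, which also stands in the stromal list, and Tgm2, a transglutaminase that retinoic acid induces. Tgm2 read 10.62, 10.73 and 10.69 in activated and 10.83, 11.11 and 10.79 in wildtype kidneys of the higher run, a difference of -0.23 (SE 0.10, limma adjusted p = 0.779). It read 9.10, 9.06 and 9.07 in activated and 9.87, 9.84 and 10.26 in wildtype kidneys of the lower run, and fell by 0.91 (SE 0.15, limma adjusted p = 0.0276). The Tgm2 groups overlapped in neither run, with the activated arrays below. Of all genes 5.73% had such groups in the higher run and 7.09% in the lower run. With the mean of all Tgm2 probe sets the lower-run difference was -0.41 (limma adjusted p = 0.747). The calls of Meis2 and Tgm2 held in 1 of 6 fits that left out 1 array, the one without activated 2 (adjusted p = 0.0188 to 0.136 and 0.0438 to 0.161). Both were lost with median centring (adjusted p = 0.0623 and 0.0732) and without the variance trend (adjusted p = 0.152 and 0.144).

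Between runs the response genes did not move one way. Tgm2 was higher in the higher run, by 1.60 in activated (SE 0.11, adjusted p = 0.000256) and by 0.92 in wildtype kidneys (SE 0.14, adjusted p = 0.00657) with limma. With the mean of its probe sets the difference in activated kidneys was 1.012 (adjusted p = 0.0213), and without the variance trend the wildtype call was lost (adjusted p = 0.050006). Egr1, an immediate early transcription factor, was higher as well, by 1.22 in activated (SE 0.10, limma adjusted p = 0.000585) and by 1.10 in wildtype kidneys (SE 0.12, limma adjusted p = 0.00151). Crabp2 was lower in wildtype kidneys, as given above. Hoxb1, the second response gene called lower there, was above background on no array, so no difference is given for it. Ret, a target of the pathway in the ureteric bud, differed by -0.06 over all 12 arrays (SE 0.24, limma adjusted p = 0.997), at values near background.

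**Figure D5:**
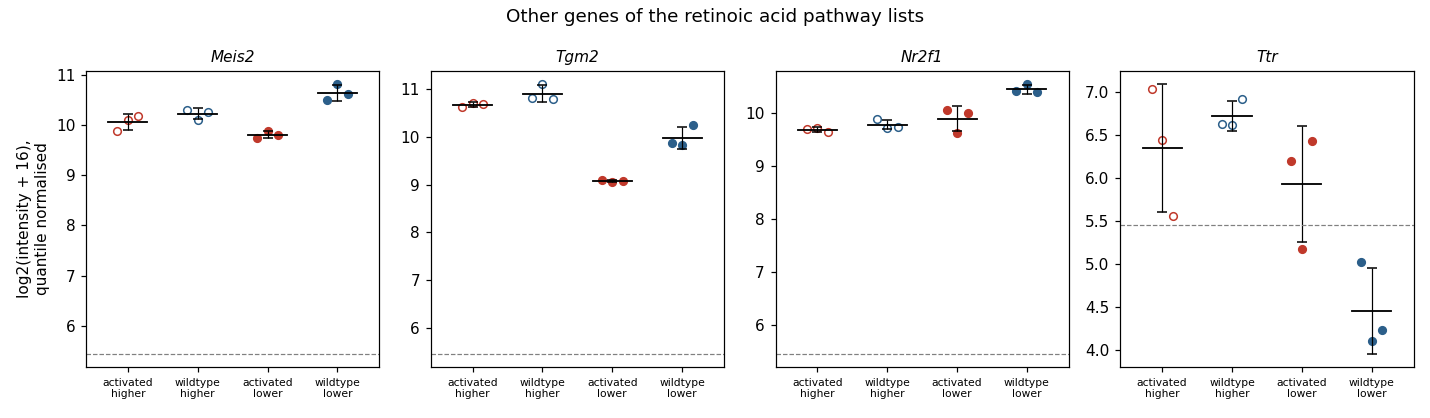
Log2 values on each array of Meis2, Tgm2, Nr2f1 and Ttr, genes of the pathway lists that are not among the 9 members, by genotype and run (open points for the higher run, filled for the lower run), with the group mean (line) and SD (bars, n = 3); the dashed line is the highest bacterial control signal, 5.45. Tgm2 has its activated arrays below its wildtype arrays in both runs and lies lower in the lower run.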

How the data were processed

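RNA from 12 samples (6 activated, 6 wildtype) was measured on 3' expression arrays after Trizol extraction and an Affymetrix labelling kit, per the labels' protocols. The deposited table gives an intensity per probe set and array on a linear scale. Every array has the same trimmed mean (250.1, leaving out 2% at each end), so the authors' values were scaled, and the sources used here do not name the software. Intensities were taken as log2(intensity + 16), which understates the fold changes of dim genes. Quantile normalisation followed because array quartiles differed by 0.18 to 0.29, over the limit of 0.1. Each gene took its probe set with the highest mean (4956 genes had several). Probe sets with 1 symbol numbered 20380; 691 with several, 1555 without and 64 controls were left out. limma 3.58.1 in R 4.3.3 fitted 2-sided tests with a variance trend to all genes, for all arrays, within each run, for the runs within a genotype and for their interaction. The calculations were tested on simulated data. Plots used matplotlib 3.10.9.

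Genes beyond the members were named as the 3 with the smallest p per pathway list or any past the threshold. The 3 most similar to each member whose group means spanned 0.5 or more were named too. Of the markers, Foxd1, Six2 and Ret were named, with those past the threshold between runs and the stromal ones that fell in the lower run. Other nephron progenitor and ureteric bud markers that fell in the activation comparisons were only counted. The members and lists were chosen with earlier results of these data known. Precision is limited by the number of arrays. Alternatives were the deposited scale, median centring, a pseudocount of 1, removal of the dimmest 40% of genes, other probe set rules and variance settings, array weights, covariates and left-out arrays. In the lower-run activation comparison 1 of 9 ureteric bud markers fell and 0 rose, where 0.266% of all genes fell. Of 6 early nephron, 5 podocyte and mesothelium, 5 endothelial, 3 neural, 3 macrophage, 3 erythroid and 3 muscle markers, 0 passed there. Over all 12 arrays 1 of 9 ureteric bud markers fell and 0 rose, where 0.00807% of all genes fell. This fall was lost with the values as deposited and without the variance trend.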

Additional observations from a re-analysis of the deposited data

Results flagged for a closer look

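The activation difference of Aldh1a2 was not the same in the 2 runs. Its change, higher minus lower run, was 0.99 on the log2 scale (SE 0.17, limma adjusted p = 0.0222), with overlap between the genotypes in the higher run and none in the lower run. The call was lost with median centring of the arrays, without a variance trend, and in 6 of 12 fits that left out 1 array.

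Rarb on wildtype 5, at 8.76, stood apart from the other 5 wildtype arrays, at 8.32 to 8.45. Its gap to the nearest of them was 0.714 of the group's range, above Dixon's 95% critical value for 6 samples, which chance passes in about 1 of 20 groups. Each of the 8 measured members was screened so in both genotypes, with the runs pooled, and no other group passed.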

How the results depend on the processing

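Of 1006 values of 61 single-gene results under the alternatives, 925 kept their direction and side of the threshold. The test was lost in 59 and gained in 1, and 21 had the other sign with no test passed in either fit; the cause was not tested. The count of genes past the threshold over all 12 arrays (3) was 1 with each gene's probe sets averaged, 1 without the variance trend, 5 with the 5' to 3' ratio as a covariate, 13 with the run as a term and 78 with both. The higher-run count (1) was 2 with median centring, 0 with probe sets averaged, 0 without the trend and 3 with a robust prior. The lower-run count (74) was 39 without the trend. The count for the change between runs (41) was 18 with median centring, 24 without the trend, 88 with array weights and 94 with the 5' to 3' covariate. Without the trend the run counts were 196 (345) in activated and 300 (631) in wildtype kidneys. Leaving out 1 array, the counts ran from 0 to 4 over all arrays, 0 to 1 in the higher run, 30 to 87 in the lower run, 16 to 47 for the change between runs, 90 to 426 between runs in activated and 226 to 468 in wildtype kidneys. The activation difference of Cyp26a1 was -0.18 in the higher run with a pseudocount of 1. The change of its activation difference, higher minus lower run, was 0.080 with array weights.

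Small differences crossed 0 when 1 array was left out. Higher-run activation differences ran from -0.32 to 0.21 for Aldh1a3, -0.33 to 0.033 for Rarb, -0.24 to 0.28 for Cyp26a1, -0.14 to 0.12 for Crabp2 and -0.26 to 0.075 for Dhrs3, and lower-run ones from -0.22 to 0.64 for Crabp1. Run differences ran from -0.46 to 0.16 for Cyp26a1 and -0.25 to 0.0068 for Crabp2 in activated kidneys, and from -0.17 to 0.27 for Aldh1a1 and -0.088 to 0.13 for Rarb in wildtype kidneys. No paired analysis was possible because the replicate numbers only name the arrays. Dim genes are limited by signal: Cyp26a1 was above the bacterial control signal on 2 of 12 arrays, so its differences carry no order, and Aldh1a1 was above it on 11 of 12. With 3 arrays a group within a run, a p that misses the threshold does not show equal levels.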
